A study of Mus musculus with 12 samples.

Results

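The 9 genes described here, C1ra, C1s1, C4b, C2, C3, Cfb, Serping1, Cfi and Cd55, encode components and regulators of the complement system other than the C1q chains. They were taken as a list of named genes by mapping the Ensembl identifiers of the count table to GENCODE M21 symbols, and all 9 were found among the 54109 identifiers. RNA had been sequenced from mice with acute colitis caused by dextran sulfate sodium (DSS), a polymer that injures the colonic epithelium. Wild-type mice (WT) were compared with Gpr15l-/- mice (KO), which lack a secreted ligand of the receptor Gpr15 on T cells. Libraries were made from whole colon and from LPMC, a label that usually stands for mononuclear cells released from the lamina propria. Each tissue was sampled in both genotypes, with 3 libraries for each of the 4 combinations and 12 in all.

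DSS treatment was common to all 4 groups, so each level below is a level during colitis, and mice without DSS were not analysed here. The labels give no strain, age, sex, DSS dose or day of sampling. They also leave unsaid whether replicates were different mice, whether mice were pooled, and whether colon and LPMC were taken from the same mice. A p-value therefore measures the spread between these libraries, part of which may be technical.

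Complement is a cascade of blood and tissue proteins that marks microbes and damaged cells. In the classical pathway C1q carries the proteases C1r and C1s, which cleave C4 and C2 to form an enzyme that cleaves C3, while in the alternative pathway factor B, encoded by Cfb, supplies the protease. The C1 inhibitor (Serping1), factor I (Cfi) and the membrane protein CD55 hold the cascade in check, and although the liver makes most circulating complement, intestinal epithelium, stromal cells and macrophages are known local sources.

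The stretches just upstream of the transcription start are shown first for C3, C1s1 and Cd55, because C3 and C1s1 were lowest in the same libraries of each tissue while Cd55 was not. The RefSeq promoter table of GRCm38.p6 matched 4 of the 9 symbols, and C2, Cfb, Cfi, C4b and Serping1 had no match. The 3 windows shown lie outside the GENCODE gene, whereas 216 of the 250 bases of the C1ra window lie inside it and are not shown. Each sequence runs 5′ to 3′ on the gene's own strand over the 250 bases before the start, and capitals mark letters that match a searched motif. The first is chr17:57228137-57228386, the next is before the first of the pair of starts listed for C1s1, at chr6:124542360-124542609, and the last is chr1:130462745-130462994, all on the minus strand.
C3: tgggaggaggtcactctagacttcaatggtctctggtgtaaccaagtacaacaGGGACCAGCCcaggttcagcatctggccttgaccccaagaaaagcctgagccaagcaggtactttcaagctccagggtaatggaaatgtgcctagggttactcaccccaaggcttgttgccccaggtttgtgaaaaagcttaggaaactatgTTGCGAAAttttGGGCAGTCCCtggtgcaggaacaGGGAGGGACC
C1s1: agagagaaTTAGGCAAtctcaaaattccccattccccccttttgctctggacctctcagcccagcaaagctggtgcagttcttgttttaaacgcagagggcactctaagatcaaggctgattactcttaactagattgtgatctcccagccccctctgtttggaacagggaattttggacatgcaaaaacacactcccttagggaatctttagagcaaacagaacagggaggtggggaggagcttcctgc
Cd55: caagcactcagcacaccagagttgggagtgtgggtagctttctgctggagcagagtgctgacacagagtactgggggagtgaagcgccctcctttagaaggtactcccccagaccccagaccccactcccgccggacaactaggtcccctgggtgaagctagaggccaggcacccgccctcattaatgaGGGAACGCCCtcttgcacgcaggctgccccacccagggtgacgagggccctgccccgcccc
The motifs, searched on both strands, were TTCNNNGAA (GAS, bound by STAT factors), GAAANNGAAA (the core of the interferon-stimulated response element), GGGANNNNCC (NF-kB) and TTGCNNAA (C/EBP). Of all 32851 promoter windows of this length, 7.02% held the first, 2.98% the second, 17.6% the NF-kB letters and 9.56% the C/EBP letters. The C3 window held 3 matches to the NF-kB letters, which began 197, 33 and 10 bases before the start, and 1 to the C/EBP letters at 45 bases. The C1s1 window held 1 C/EBP match at 242 bases. The window of the other C1s1 start, of which 38 bases lie inside the gene, held no C/EBP match and 1 NF-kB match at 35 bases. The Cd55 window held 1 NF-kB match at 61 bases, and the C1ra window none of the 4 motifs. A match of letters is a description of the sequence only.

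Library totals ran from 45.4 to 140.7 M counts (M for 1e6). The deleted gene, annotated as 2610528A11Rik, had 15639 to 80362 counts in the WT libraries of both tissues and 4 to 20 in the KO libraries, which fits the genotype labels. The LPMC libraries were not free of epithelium: the summed level of 8 epithelial markers was 9206 to 13220 CPM (counts per 1e6 counts, scaled by the TMM factors of edgeR) in LPMC and 15920 to 30950 CPM in colon. Of 8 fibroblast markers, all were detected in LPMC, with a summed level of 906 to 5365 CPM against 227 to 1037 CPM in colon.

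No complement gene of the 9 passed the test of KO against WT, where 0.00518% of all genes tested in colon and 0.0103% in LPMC passed. Between tissues 3 passed, where 50.3% of all genes did. Cd55 was 1.75-fold lower in LPMC than in colon with no overlap between libraries, a pattern seen in 27.7% of all genes. C3 was 3.62-fold higher and Cfb 1.62-fold higher in LPMC, both with overlap. C1ra, C1s1, C4b, Serping1 and C2 passed none of these tests. Cfi was close to undetected.

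The genes lie in a few clusters of GRCm38. C1ra (ENSMUSG00000055172, chr6:124512405-124523443, plus strand) and C1s1 (ENSMUSG00000038521, chr6:124530345-124542359, minus strand) are neighbours whose ends are 6901 bases apart. C4b (ENSMUSG00000073418, chr17:34728380-34743882), Cfb (ENSMUSG00000090231, chr17:34856374-34862518) and C2 (ENSMUSG00000024371, chr17:34862604-34898265) share the minus strand of the major histocompatibility region, with 85 bases between Cfb and C2. C3 (ENSMUSG00000024164) is farther along at chr17:57203970-57228136. Serping1 (ENSMUSG00000023224) is at chr2:84765387-84775444, Cfi (ENSMUSG00000058952) at chr3:129835884-129875332 and Cd55 (ENSMUSG00000026399) at chr1:130439027-130462744.

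Some of these genes share sequence with another gene, which bears on how their reads could be counted. An annotated read-through gene, Gm20547, covers 79.5% of the exon bases of Cfb and 42.8% of those of C2 on the same strand, and it had 0 counts in every library. Across the table, 131 of 132 protein-coding genes (99.2%) whose exon bases were all shared on one strand had 0 counts in every library, against 19.2% of 15489 genes that shared none. The levels of Cfb and C2 per exon length are therefore uncertain. On the scale of stretches of 50 bases, 48% of C1ra recurred in its copy C1rb, 34.6% of C4b in C4a, 21.8% of C1s1 in C1s2 and 8.0% of Cd55 in Cd55b, while C3, Serping1 and Cfi had none. The copies themselves were low, at no more than 0.202 CPM for C1rb, 2.32 CPM for C4a, 0.632 CPM for C1s2 and 0.308 CPM for Cd55b in any library. Reads that fit both a gene and its copy may have gone uncounted for either, as the counting rule is not given. The levels of C1ra, C4b, C1s1 and Cd55 per exon length are then uncertain too.

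**Figure D1:**
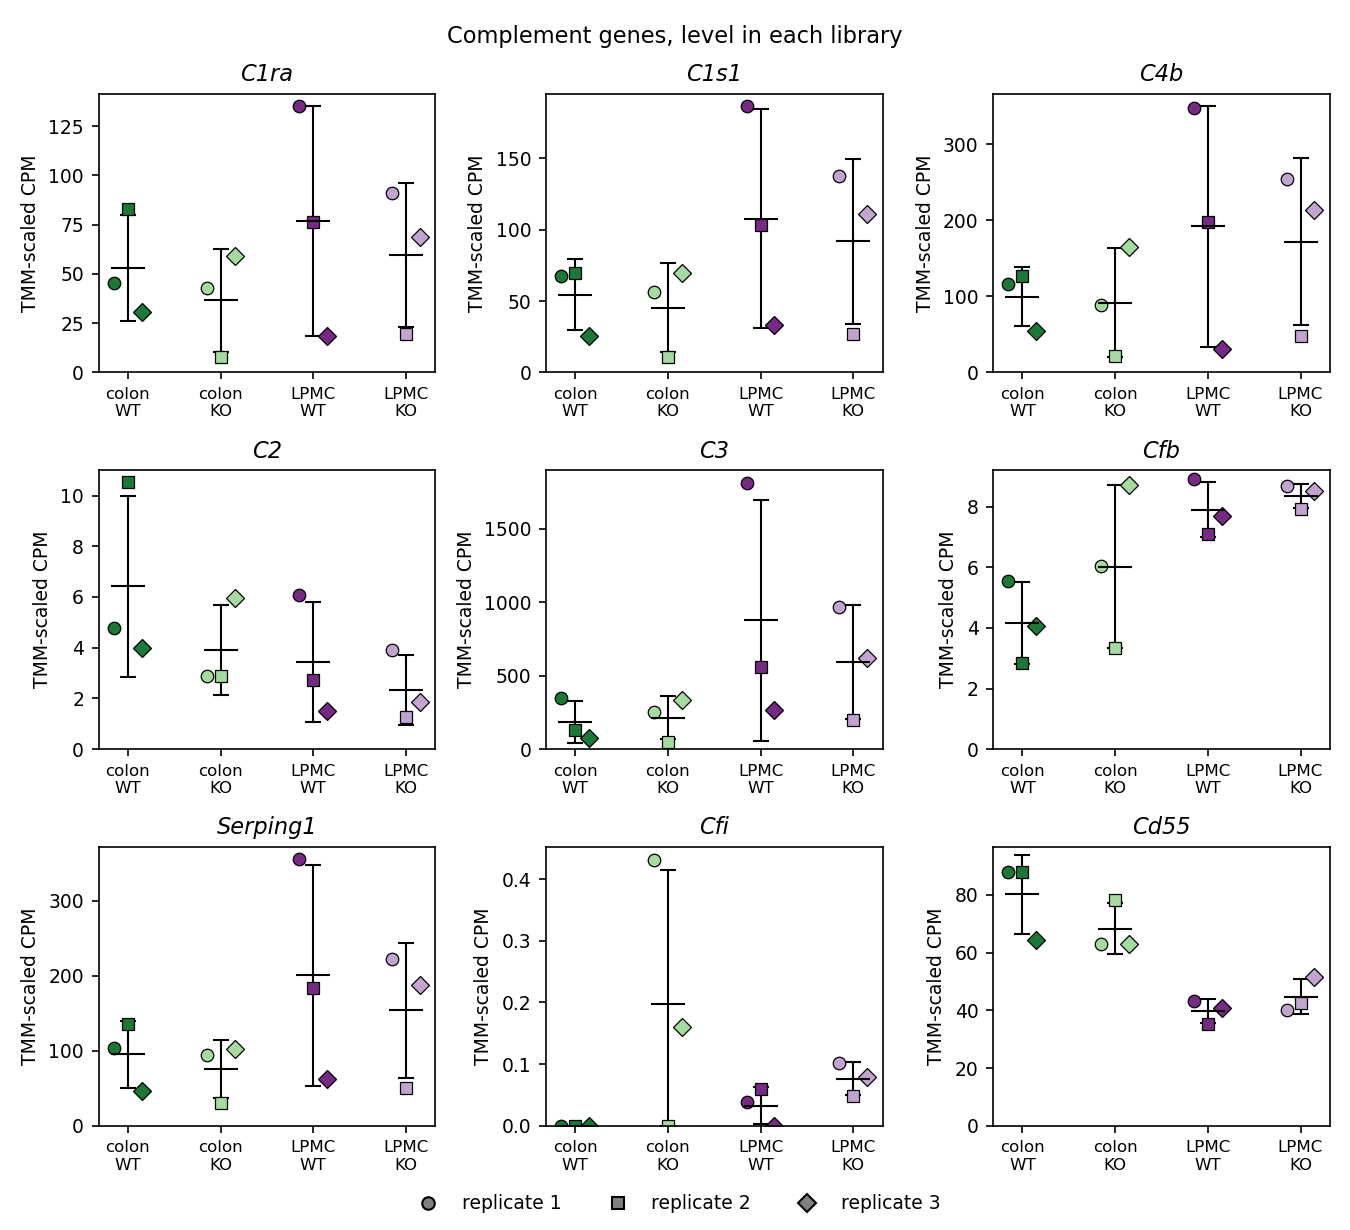
Level of each complement gene in every library, as TMM-scaled CPM on a linear axis from 0; symbols are replicates 1 to 3, horizontal bars the mean and error bars the SD of 3 libraries. Cd55 is the gene whose colon libraries (63.1 to 88.0 CPM) all lie above its LPMC libraries (35.1 to 51.7 CPM).

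C1ra encodes the protease C1r, which activates C1s. Its level was 45.2, 82.95 and 30.8 CPM in colon WT replicates 1 to 3 and 43.0, 7.96 and 59.1 CPM in colon KO. In LPMC it was 135, 76.6 and 18.7 CPM in WT and 90.9, 19.6 and 68.7 CPM in KO. Replicate 2 of colon KO was lowest of the 12, replicate 1 of LPMC WT highest, and the groups overlapped in both tissues. The log2 fold change of KO over WT was -0.55 (SE 0.68) in colon (adjusted p = 0.825) and -0.36 (SE 0.80) in LPMC (adjusted p = 0.998) by edgeR's quasi-likelihood test with Benjamini-Hochberg adjustment. LPMC over colon it was 0.62 (SE 0.58, edgeR adjusted p = 0.40).

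C1s1 encodes C1s, the protease that cuts C4 and C2. It stood at 67.8, 69.99 and 25.7 CPM in colon WT and at 56.4, 10.6 and 69.6 CPM in colon KO. The LPMC levels were 187, 103 and 33.4 CPM in WT and 138, 27.0 and 111 CPM in KO. The lowest and the highest library were those of C1ra, and KO and WT overlapped in both tissues. KO over WT differed by -0.28 (SE 0.67) on the log2 scale in colon (edgeR adjusted p = 0.917) and by -0.23 (SE 0.77) in LPMC (edgeR adjusted p = 0.998). The difference of LPMC from colon, 1.00 (SE 0.57), also missed the threshold (edgeR adjusted p = 0.167).

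C4b encodes C4, whose cleaved form binds covalently to target surfaces. Colon WT libraries held 117, 127 and 55.0 CPM, and colon KO libraries 88.3, 21.8 and 165 CPM. LPMC WT libraries held 347, 198 and 31.0 CPM, and LPMC KO libraries 255, 47.98 and 213 CPM. KO and WT overlapped in both tissues, and the KO range in colon enclosed that of WT. The log2 fold change of KO over WT was -0.14 (SE 0.66, edgeR adjusted p = 0.962) in colon and -0.16 (SE 0.93, edgeR adjusted p = 0.998) in LPMC. LPMC over colon it was 0.93 (SE 0.63, edgeR adjusted p = 0.242).

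C2, the protease subunit that pairs with C4 fragments, was scarce. It was at 4.78, 10.5 and 3.98 CPM in colon WT and 2.88, 2.90 and 5.96 CPM in colon KO. In LPMC it was at 6.07, 2.72 and 1.52 CPM in WT and 3.91, 1.25 and 1.87 CPM in KO. All groups overlapped, and C2 was the only member besides Cd55 with a negative difference of LPMC from colon. That difference was -0.82 (SE 0.42, edgeR adjusted p = 0.129), and without LPMC WT replicate 1 it passed the test at -1.16 (edgeR adjusted p = 0.0406). KO over WT gave -0.73 (SE 0.49, edgeR adjusted p = 0.694) in colon and -0.56 (SE 0.62, edgeR adjusted p = 0.998) in LPMC.

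C3 is the protein on which all activation routes converge, and its fragments coat targets and draw in leukocytes. Colon WT libraries held 348, 132 and 79.3 CPM, and colon KO libraries 256, 50.7 and 336 CPM. LPMC WT libraries held 1812, 561 and 264.5 CPM, and LPMC KO libraries 968, 195.5 and 620 CPM. The 2 lowest LPMC libraries, WT replicate 3 and KO replicate 2, lay within the colon range, and the other 4 lay above it. The mean was 200 ± 130 CPM in colon and 737 ± 595 CPM in LPMC (SD, n = 6 in both), and the log2 fold change was 1.86 (SE 0.64, edgeR adjusted p = 0.0326). In bulk RNA, fewer cells of a type and less RNA per cell cannot be told apart. The call was lost on leaving out any of 7 single libraries, with log2 fold changes of 1.31 to 1.91 and edgeR adjusted p of 0.0552 to 0.0984: colon WT replicates 2 and 3, colon KO replicates 1 and 2, LPMC WT replicate 1, and LPMC KO replicates 1 and 3. It was also lost with no filter on low counts (1.85, edgeR adjusted p = 0.093) and in WT libraries alone (2.22, edgeR adjusted p = 0.0875). KO over WT was 0.18 (SE 0.75, edgeR adjusted p = 0.956) in colon and -0.57 (SE 0.83, edgeR adjusted p = 0.998) in LPMC.

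Factor B (Cfb) is the protease of the alternative pathway. Its level was 5.55, 2.86 and 4.06 CPM in colon WT and 6.03, 3.34 and 8.70 CPM in colon KO. The 6 LPMC libraries were closely spaced, at 8.90, 7.11 and 7.69 CPM in WT and 8.66, 7.91 and 8.50 CPM in KO. Colon KO replicate 3 was the only colon library inside the LPMC range. LPMC exceeded colon by 0.70 (SE 0.24) on the log2 scale (edgeR adjusted p = 0.0314). The call was lost on leaving out any of 6 single libraries, with edgeR adjusted p of up to 0.0668, namely colon WT replicates 2 and 3, colon KO replicate 1, LPMC WT replicate 1, and LPMC KO replicates 1 and 3. It was lost as well with upper-quartile scaling (0.57, edgeR adjusted p = 0.0652) and in WT libraries alone (0.91, edgeR adjusted p = 0.0636). KO over WT gave 0.52 (SE 0.43, edgeR adjusted p = 0.742) in colon and 0.08 (SE 0.17, edgeR adjusted p = 0.998) in LPMC.

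Serping1 encodes the C1 inhibitor, which blocks C1r and C1s. Colon WT libraries held 104, 135 and 46.6 CPM, and colon KO libraries 94.4, 30.9 and 102 CPM. LPMC WT libraries held 356, 184 and 62.2 CPM, and LPMC KO libraries 222, 51.0 and 188 CPM. The 2 low LPMC libraries were again WT replicate 3 and KO replicate 2, and KO overlapped WT in both tissues. LPMC over colon was 1.05 (SE 0.50, edgeR adjusted p = 0.106), which passed only on leaving out LPMC WT replicate 3 (1.27, edgeR adjusted p = 0.0469) among the single libraries. KO over WT was -0.35 (SE 0.52, edgeR adjusted p = 0.858) in colon and -0.38 (SE 0.75, edgeR adjusted p = 0.998) in LPMC.

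Factor I (Cfi) degrades C3b and C4b together with cofactors. It had 0 counts in all 3 colon WT libraries, 40, 0 and 24 counts in colon KO, 4, 6 and 0 in LPMC WT and 14, 4 and 6 in LPMC KO. In the 5 libraries at 0, a count of 0 allows up to 3 counts, or 0.0362 to 0.0697 CPM, with counting error alone considered. Cfi did not pass the filter on low counts and was not tested.

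CD55, or decay-accelerating factor, sits on the cell membrane and takes apart the enzymes that cleave C3. Its level was 88.0, 87.8 and 64.5 CPM in colon WT and 63.0, 78.4 and 63.1 CPM in colon KO. In LPMC it was 43.2, 35.1 and 40.9 CPM in WT and 40.2, 42.4 and 51.7 CPM in KO. Every LPMC library was below every colon library, and KO overlapped WT in both tissues. The mean was 74.1 CPM in colon and 42.2 CPM in LPMC, a log2 fold change of -0.81 (SE 0.12, edgeR adjusted p = 0.000264). Over all alternative settings and single libraries left out it ranged from -1.03 to -0.77 and passed the edgeR test each time a library was left out (adjusted p of at most 0.00114). KO over WT was -0.25 (SE 0.19, edgeR adjusted p = 0.727) in colon and 0.17 (SE 0.14, edgeR adjusted p = 0.998) in LPMC.

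Compared per kilobase of exon, so that genes can be set side by side, Serping1 and C3 led in colon WT with 40.9 ± 19.3 and 36.2 ± 27.7 CPM per kilobase (SD, n = 3), and Serping1 exceeded C3 in 2 of the 3 libraries. C1ra (17.8 ± 9.03), C4b (17.5 ± 6.84), C1s1 (17.4 ± 7.98) and Cd55 (16.5 ± 2.79 CPM per kilobase) followed at nearly one level, each below Serping1 in 3 of 3 libraries, and their order among themselves changed between libraries. C2 and Cfb were at 1.66 ± 0.921 and 1.47 ± 0.478 CPM per kilobase, with C2 the higher in 1 of 3 libraries, and Cfi was at 0. In LPMC WT the order was C3 (171 ± 160), Serping1 (86.3 ± 63.4), C1s1 (34.4 ± 24.5), C4b (33.8 ± 27.8), C1ra (25.8 ± 19.5), Cd55 (8.19 ± 0.859), Cfb (2.80 ± 0.323), C2 (0.888 ± 0.609) and Cfi (0.0148 ± 0.0138 CPM per kilobase). There C3 exceeded Serping1 in 3 of 3 libraries, and Serping1 exceeded C1s1, C4b and C1ra in 3 of 3, although the SDs of C3 and Serping1 were nearly as large as their means. C4b changed places with C1s1 and with C1ra between libraries, and C4b and C1ra each exceeded Cd55 in 2 of 3. Reads were not recounted over unshared bases, but the whole count was also divided by the unshared length alone. This holds only if no read on shared bases had been counted. With the 579 exon bases of Cfb that Gm20547 does not share, Cfb became 7.18 in colon WT and 13.6 CPM per kilobase in LPMC WT. The latter was above the level of Cd55. Divided in the same way by its own unshared length, C2 was at 2.90 CPM per kilobase in colon WT. Its mean was then below that of Cfb instead of above it.

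The effect of losing Gpr15l was then read over all members. In colon, 0 of the 8 genes tested passed an adjusted p of 0.05 by edgeR, where 0.00518% of all 19303 genes tested passed, and 0 had an unadjusted p under 0.05, where 7.79% of all genes had. KO and WT overlapped for each of the 9, while 14.3% of all genes had groups that did not overlap. Of the 8 log2 fold changes 6 were negative, beside 9562 of the 19303 over all genes, with a median of -0.26 against 0.0062 for all genes tested. Colon KO replicate 2 was the lowest colon library for C4b, C1ra, C1s1 and Serping1. The values of C4b, C1s1 and Serping1 changed sign on leaving out some single libraries. DESeq2, which called 0.171% of all genes, called 0 members.

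In LPMC, 0 of 8 passed by edgeR as well, beside 0.0103% of 19426 genes tested, and 0 had an unadjusted p under 0.05, beside 2.64% of all genes. The groups again overlapped for every member, against 7.41% of all genes without overlap, and DESeq2 called 0 members and 0.175% of all genes. The median log2 fold change was -0.30, that of all genes -0.0041, and the 8 values ran from -0.57 (C3) to 0.17 (Cd55). The test of whether the genotype effect differed between tissues passed for 0 of 8 members and for 0.0% of 20989 genes by edgeR, with 4.69% of all genes but 0 members at an unadjusted p under 0.05. DESeq2 called 0.0143% of genes for this difference and 0 members. For C3 the standard error of 0.75 in colon and 0.83 in LPMC was larger than the difference itself, so a difference of that size was not detectable with 3 libraries a group.

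**Figure D2:**
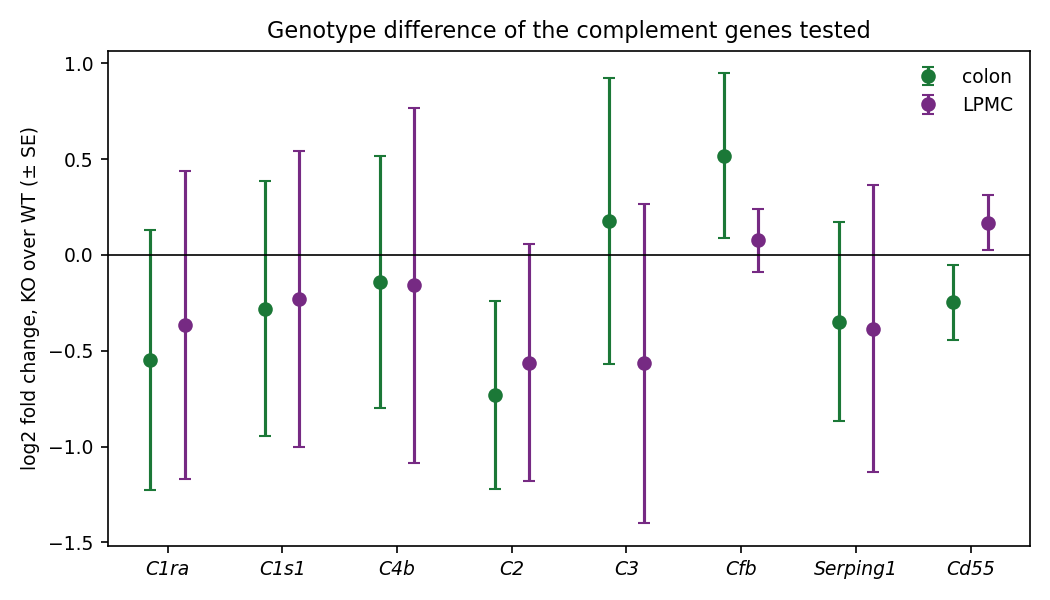
Log2 fold change of KO over WT for the 8 complement genes tested, in colon (green) and LPMC (purple); points are edgeR estimates and bars are ± 1 SE. The estimates run from -0.73 for C2 to 0.52 for Cfb, both in colon, and none passed the adjusted test.

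Between tissues, 3 of 8 members passed the test by edgeR, against 50.3% of all 20989 genes tested. Higher in LPMC were C3 and Cfb (25.4% of all genes were higher), and lower was Cd55 (24.9% of all genes were lower). The share of members called was thus not above the background. Groups did not overlap for Cd55 alone, where 27.7% of all genes had groups without overlap. The median log2 fold change of the 8 was 0.81, that of all genes 0.0076.

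Some cell type marker lists moved with tissue too, while others had few calls or none. Of the 8 fibroblast markers, 8 were higher in LPMC by edgeR (median log2 fold change 2.67), as were 6 of 7 endothelial markers (2.11) and 8 of 8 T cell markers (2.94), while 6 of 8 epithelial markers were lower (-0.88). All 5 plasma cell markers were higher (4.35), whereas 0 of 6 smooth muscle and 0 of 6 B cell markers were called. Of 9 monocyte and macrophage markers 1 was higher and 1 lower, and of 7 neutrophil markers 1 was higher and 1 lower. A list of 7 cytokines known to induce complement genes was higher in all 7 (3.28), and 8 of 12 interferon response genes were lower (-1.05). Their part in the differences of Cd55, C3 and Cfb was not tested.

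Within a tissue, the lowest libraries were shared by most members. In LPMC, WT replicate 3 and KO replicate 2 were the lowest 2 libraries for 6 of the 8 tested members, C3, C2, C4b, C1ra, C1s1 and Serping1, and WT replicate 1 was highest for 7. In colon, KO replicate 2 and WT replicate 3 were the lowest 2 for 5 members, C3, C4b, C1ra, C1s1 and Serping1. The highest colon library was not shared: it was WT replicate 2 for C2, C1ra, C1s1 and Serping1, WT replicate 1 for C3 and Cd55, and KO replicate 3 for Cfb and C4b. Summed epithelial markers were highest in colon KO replicate 2, at 30950 CPM against 15920 to 23710 CPM elsewhere in colon. Its smooth muscle and plasma cell sums were highest too. Most of the plasma cell sum in colon was Sdc1, on average 222 of 238 CPM in KO and 181 of 231 CPM in WT. Jchain averaged 14.2 CPM in colon KO and 42.8 CPM in colon WT, so this sum says little about plasma cells. The fibroblast (227 CPM), endothelial, monocyte and macrophage (39.8 CPM), neutrophil, T cell and B cell sums of colon KO replicate 2 were lowest. Most of the neutrophil sum in colon was Ly6g, on average 277 of 363 CPM in KO and 526 of 652.5 CPM in WT. In LPMC, Ly6g averaged 3.84 CPM in KO and 5.14 CPM in WT. Colon WT replicate 3 was next lowest for fibroblast (268 CPM) and monocyte and macrophage markers (132 CPM). Their part in the levels was not tested. C4b spanned 11.2-fold and C3 9.27-fold over the 6 LPMC libraries, whereas Cfb spanned 1.25-fold. C1s1 and Serping1 kept the closest ratio, with an SD of their log2 ratio of 0.10 over the 6 LPMC libraries and 0.25 over all 12.

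Several marker lists were lowest in the same 2 LPMC libraries. Summed epithelial markers were highest in these, at 13220 CPM (LPMC WT replicate 3) and 12590 CPM (LPMC KO replicate 2) against 9206 to 12110 CPM. Summed smooth muscle markers were 136 and 207 CPM in LPMC WT replicate 3 and LPMC KO replicate 2 and 360 to 1182 CPM in the other 4, and summed B cell markers 58.8 and 43.5 CPM against 98.1 to 258.5 CPM. The summed level of fibroblast markers was 5365, 3286 and 906 CPM in LPMC WT and 3865, 1041 and 3902 CPM in LPMC KO, so that LPMC WT replicate 3 and LPMC KO replicate 2 stood apart from the other 4. Because of these separate clusters no correlation is given for LPMC. Per 1000 CPM of fibroblast markers, a ratio formed after the values were seen, Serping1 was at 48.3 to 68.7 CPM, C1s1 at 25.9 to 36.9 CPM and C1ra at 17.6 to 25.2 CPM over the 6 LPMC libraries. Each of these ratios spanned between 1.42-fold and 1.43-fold, while the markers themselves spanned 5.92-fold. The ratios of C4b, C3 and C2 spanned 1.93-fold, 2.12-fold and 3.51-fold, and those of Cfb and Cd55 5.12-fold and 5.602-fold. In colon the ratios of Serping1, C1s1 and C1ra were higher and spanned 4.30-fold to 7.40-fold, with Serping1 at 98.3 to 422.5, C1s1 at 46.5 to 219 and C1ra at 35.0 to 259 CPM per 1000 CPM of markers. The colon range lay wholly above the LPMC range for Serping1, C1s1, C1ra, C4b, C2 and Cd55 but not for C3 and Cfb. No such ratio was formed for smooth muscle or B cell markers, whose sums were also lowest in LPMC WT replicate 3 and LPMC KO replicate 2. The ratios therefore do not set fibroblasts apart from those cell types. The part of any cell type in these levels was not tested.

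**Figure D3:**
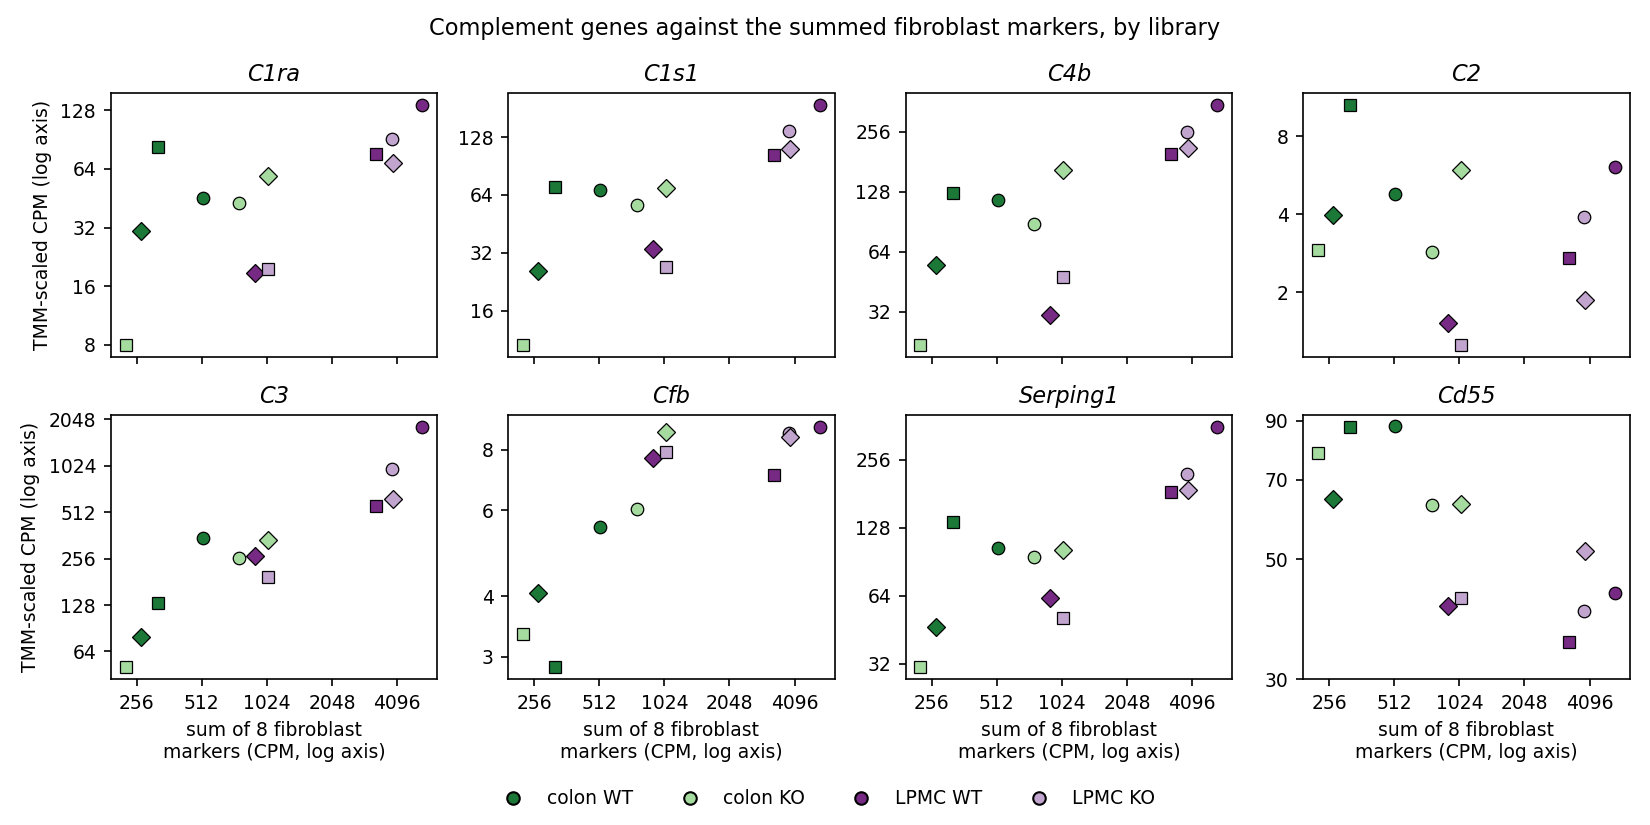
Level of 8 complement genes (TMM-scaled CPM, log axis) against the summed level of 8 fibroblast markers (CPM, log axis) in the 12 libraries; colours are groups, and circles, squares and diamonds are replicates 1, 2 and 3. The 2 LPMC libraries with 906 and 1041 CPM of markers are the lowest LPMC libraries for C1ra, C1s1, C4b, C2, C3 and Serping1 but not for Cfb and Cd55.

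Among the 6 colon libraries the marker sum was spread more evenly, from 227 to 1037 CPM. C3 followed it with Pearson r = 0.90 (exact permutation p = 0.0306, Benjamini-Hochberg adjusted over 96 relations 0.170) and Spearman rho = 0.83 (exact permutation p = 0.0583, adjusted 0.373). For Cfb, r was 0.91 (exact permutation p = 0.0167, adjusted 0.146) and rho 0.83 (exact permutation p = 0.0583, adjusted 0.373). Without the 2 libraries farthest from the median marker sum, r was 1.00 for C3 and 0.70 for Cfb, over the few libraries left. The remaining members followed the fibroblast sum less closely. Their r was 0.73 for C4b, 0.71 for C1s1, 0.62 for Serping1, 0.55 for C1ra, 0.05 for C2 and -0.44 for Cd55. C3 followed the summed endothelial markers with r = 0.97 (exact permutation p = 0.00278, adjusted 0.0889), rho = 0.94 (exact permutation p = 0.0167, adjusted 0.373) and r = 0.95 without the 2 farthest libraries. C3 followed the summed monocyte and macrophage markers as well, with r = 0.91 (exact permutation p = 0.00139, adjusted 0.0889), rho = 1.00 (exact permutation p = 0.00278, adjusted 0.267) and r = 0.86 without the 2 farthest. C1s1 followed those markers with r = 0.98 (exact permutation p = 0.0167, adjusted 0.146) and rho = 0.60 (exact permutation p = 0.242, adjusted 0.422), but r was 0.10 without colon KO replicate 2 and colon WT replicate 3, so this relation rests on those libraries. The same held for C4b, C1ra and Serping1, whose r of 0.95, 0.92 and 0.92 became 0.05, -0.68 and -0.56 without them. None of the 96 relations, 8 members against 6 marker sums in each tissue, passed after adjustment.

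The genes whose pattern over the 12 libraries came closest to each member were found among 12006 genes, by the root mean square difference of log2 CPM after centring each gene on its mean. For Serping1 they were Axl (0.22), C1s1 (0.24) and Mxra8 (0.27), and for C1s1 Vcam1 (0.22), Serping1 (0.24) and C1ra (0.32). C4b was closest to C1ra (0.32), C1s1 (0.32) and Pdpn (0.34), and C1ra to C4b (0.32), C1s1 (0.32) and Ifi27l2a (0.34). C3 was closest to Aebp1 (0.38), Scara3 (0.40) and Abi3bp (0.47), where its own root mean square around its mean was 1.41. Thus C1ra, C1s1, C4b and Serping1 each had another complement gene among their nearest 3, and C3 did not. Cd55 was closest to Litaf (0.12), Cyb5d2 (0.13) and Trim25 (0.15), Cfb to Tnrc6b (0.16), Wdr7 (0.16) and Kat6a (0.17), and C2 to Adamtsl4 (0.39), Tcea2 (0.39) and Cebpd (0.41). These last 3 members vary less over the libraries, with root mean squares around their own means of 0.45, 0.55 and 0.85. A small difference is thus easier to reach for them, although C2 did not reach one. Its nearest gene was at 0.39, against 0.38 for C3.

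The rest of the cascade was read from 46 further complement genes. Between tissues 36 were tested and 10 passed by edgeR, 6 higher and 4 lower in LPMC, with a median of 0.40 over the 36. Among all genes 50.3% passed, 25.4% higher and 24.9% lower, so the share was below the background. Highest was C7, a component of the membrane attack complex, at 18.7, 6.61 and 5.68 CPM in LPMC WT, 8.89, 4.09 and 9.85 CPM in LPMC KO and 0.0573 to 1.16 CPM in colon (log2 fold change 5.25, SE 0.68, edgeR adjusted p = 0.000141). No LPMC library of C7 overlapped colon. Masp1, a protease of the lectin pathway, averaged 7.97 CPM in LPMC and 0.836 CPM in colon (3.41, SE 0.62, edgeR adjusted p = 0.00109). C5ar1, the receptor of the fragment C5a on myeloid cells, averaged 14.6 and 3.24 CPM (2.13, SE 0.47, edgeR adjusted p = 0.00356) without overlap. The summed monocyte and macrophage markers were 151 to 502 CPM in LPMC (median 237) and 39.8 to 344 CPM in colon (median 254). Of these 9 markers, 1 was called higher and 1 lower in LPMC by edgeR. Their part in the C5ar1 difference was not tested.

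Lower in LPMC beside Cd55 were other regulators. C4bp, a cofactor that inactivates C4b, averaged 2.88 CPM in LPMC and 10.03 CPM in colon (-1.79, SE 0.33, edgeR adjusted p = 0.00106), and Cd46, a membrane cofactor, 0.701 and 1.30 CPM (-0.91, SE 0.23, edgeR adjusted p = 0.00681). Cd46 did not overlap between tissues. Cfd, which encodes factor D, the protease that cleaves factor B, ranged from 0.0604 to 23.1 CPM in colon with colon KO replicate 3 highest, and from 0 to 0.509 CPM in LPMC (-4.72, SE 1.32, edgeR adjusted p = 0.0128). That call was lost with limma voom (-4.26, adjusted p = 0.0882) and in 1 further setting given in the closing section. To complete the 10, Colec11 (2.78), Vtn (2.55) and Colec10 (1.98) were higher and Cd59a (-1.15) lower. Colec10 lost its call on leaving out any of 8 single libraries and Cd59a on any of 6, and Colec11 was at no more than 0.496 CPM.

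**Figure D4:**
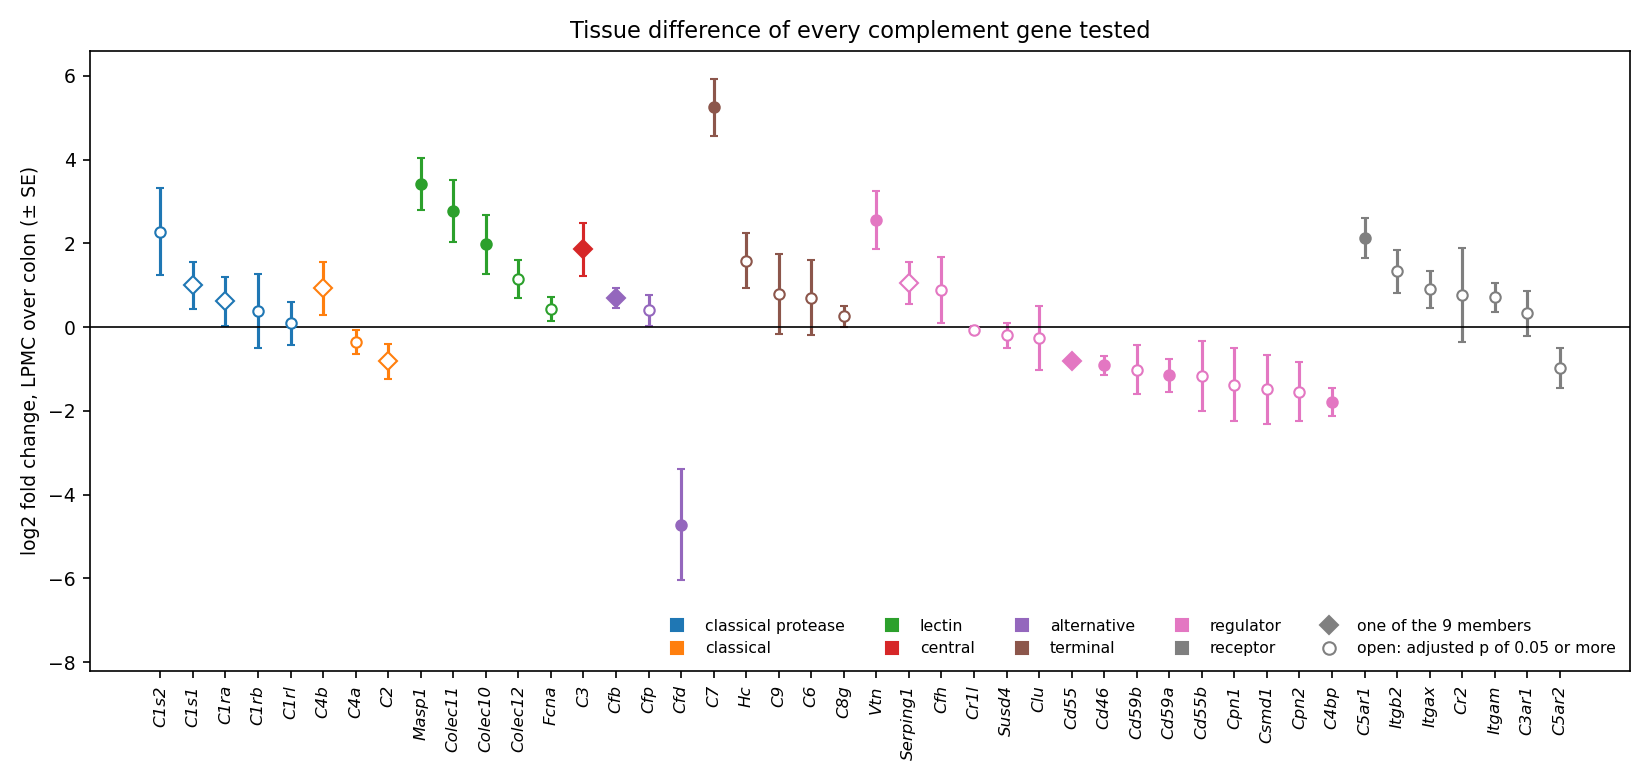
Log2 fold change of LPMC over colon for every complement gene tested, ordered by role; diamonds are 8 of the 9 genes described here, circles the other 36, bars ± 1 SE, and filled symbols have an edgeR adjusted p under 0.05. C7 (5.25) is the highest and Cfd (-4.72) the lowest, with C3 and Cfb filled above 0 and Cd55 filled below it.

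By genotype, 0 of 31 further complement genes tested in colon and 0 of 32 in LPMC passed by edgeR. At an unadjusted p under 0.05, which 7.79% of all genes reached in colon and 2.64% in LPMC, there were 2 in colon, Cr2 (-5.00, SE 2.12, edgeR adjusted p = 0.632) and Clu (-2.92, SE 1.24, edgeR adjusted p = 0.632). Cr2, a complement receptor of B cells, was at 94.95, 0.139 and 1.69 CPM in colon WT and 2.38, 0.261 and 0.428 CPM in KO. Without colon WT replicate 1 the log2 fold change was 0.14 for Cr2 and 0.04 for Clu, and that library also held 704 CPM of summed B cell markers, where the remaining 5 colon libraries held 1.62 to 15.4 CPM. In LPMC the 1 such gene was C5ar2, a further C5a receptor, at 0.362, 0.192 and 0.195 CPM in WT and 0.495, 0.425 and 0.934 CPM in KO (1.29, SE 0.49, edgeR adjusted p = 0.998).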

How the data were processed

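RNA was measured in 12 mouse libraries, prepared with a stranded mRNA kit per the labels' protocols. The authors deposited 1 table of raw counts, whole numbers for each Ensembl identifier. Per the submitters' processing notes, STAR and GRCm38 (mm10) were used. Counting tool, annotation, strand setting and filters: not given in the sources used here. Even counts were in excess (24184 entries of 2 against 8495 of 1), so mates of a pair may have been counted separately, and counting error is then larger than the counts imply. Replicates differed beyond sampling noise (chi-square per gene of 75.5 or more), so all 12 were kept. Columns were assigned by library name, and 54042 of 54109 identifiers matched GENCODE M21.

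Tests used R 4.3.3 and edgeR 4.0.16 (TMM factors, filterByExpr with minimum count 10, robust quasi-likelihood F-test, Benjamini-Hochberg over all genes tested, threshold 0.05). KO was compared with WT on the 6 libraries of a tissue, and tissue and interaction on all 12. Levels are TMM-scaled CPM, and SE is the fold change over the root of F. Alternatives were DESeq2 1.42.0, limma 3.58.1 voom, 2 other scalings, no filter, counts halved, a replicate block, other sets of libraries and each library left out. The steps were tested on simulated data. The replicate numbers were not taken to pair samples.

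The members, the 46 further complement genes and the marker lists were chosen with earlier results of these data known. All members are named, with up to 3 further complement genes per comparison and direction by lowest p, 4 paralogs, and up to 3 similar genes per member (mean log2 CPM 1 or more). Colec10, Colec11, Vtn and Cd59a, named to complete a count, lie outside this rule. Intervals and limits from counts cover counting error only.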

Additional observations from a re-analysis of the deposited data

How the results depend on the processing

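Over the alternatives and single libraries left out, 105 of 112 genotype values of the 8 tested members in colon, 101 of 112 in LPMC and 123 of 152 interaction values kept their sign, and none passed the threshold. The rest reversed. The cause was not tested for any change below. With limma voom, C4b reversed for LPMC genotype (0.059) and interaction (0.44). With single libraries left out, colon genotype values ran from -0.66 to 0.0255 for Serping1, -0.71 to 0.19 for C1s1, -0.86 to 0.33 for C4b, -0.28 to 1.01 for C3, -6.52 to 0.14 for Cr2 and -3.46 to 0.045 for Clu. LPMC genotype values ran from -0.81 to 0.32 for Serping1, -0.83 to 0.33 for C1ra, -0.66 to 0.43 for C1s1, -0.67 to 0.59 for C4b, -1.13 to 0.14 for C2 and -1.09 to 0.53 for C3. Interaction values ran from -0.49 to 0.64 for Serping1, -0.32 to 0.85 for C1ra, -0.43 to 0.68 for C1s1, -0.55 to 0.70 for C4b, -0.43 to 0.85 for C2 and -1.59 to 0.32 for C3. Genes called by genotype numbered 1 in colon and 2 in LPMC by edgeR, 33 and 34 by DESeq2, 2 in colon in a fit on all 12 libraries, 4 in LPMC with no filter, 0 to 1 in colon (0 without colon KO replicate 2) and 1 to 2 in LPMC (1 without replicate 1 of either genotype) with a library left out. DESeq2 called 3 genes for the interaction, edgeR 0. Between tissues, 139 of 160 member values kept direction and call, 17 lost the call and 4 gained it, with no reversal. WT libraries alone gave 6393 genes against 10549, and 1 member against 3. Leaving out single libraries gave 1 to 4 members, with 1 without colon WT replicate 2 or 3, colon KO replicate 1 or LPMC KO replicate 1 or 3, and 2 (Cd55 and C2) without LPMC WT replicate 1.

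With the replicate number as a block (replicate block), genotype calls fell to 0 in colon and 0 in LPMC. The interaction reversed for Serping1 (0.072) and C4b (0.54). Between tissues 5 members passed, with Serping1 (0.91, adjusted p = 0.00611) and C1s1 (0.95, adjusted p = 0.00275) gained by edgeR, and 16 further complement genes against 10, while Cfd lost its call (-3.93, edgeR adjusted p = 0.0638). The labels do not say whether a number marks a shared mouse. Same-numbered samples of the 2 genotypes correlated at -0.133 to 0.042 in colon and -0.23 to 0.24 in LPMC (deviations from group means), and those of colon and LPMC at 0.064 to 0.303, with 4 of 6 pairs over 0.1, where pairing was to be taken from every pair over 0.1. Between tissues 9 of 12 libraries correlated best with their own number, a hint from the data and not the design. C1s1 and Serping1 were higher in LPMC in 6 of 6 same-numbered pairs. Levels per kilobase of unshared exon divide the same whole count by the shorter length, with no recount of reads. On that scale Cfb was at 7.18, 10.4, 13.6 and 14.4 CPM (WT then KO in colon, WT then KO in LPMC), against 1.47, 2.13, 2.80 and 2.96 over all exon bases. C2 was at 2.90, 1.77, 1.55 and 1.06, against 1.66, 1.01, 0.888 and 0.605. Depth limits Cfi, and the level of C2 rests on 78 to 890 counts per library.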
